A study of Mus musculus with 5 samples.

Results

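H2AK119ub-only regions inside gene bodies are stretches of chromatin that carried monoubiquitinated histone H2A in basal epidermal cells, away from the ends of genes and without called H3K27me3. They were chosen by their place in 2 region lists. An H2AK119ub region was taken if it lay on 1 of the 19 autosomes, was under 100 kb wide, shared no base with an H3K27me3 region, met the body of a protein-coding gene, and lay more than 1 kb from both ends of every protein-coding gene. In all, 7540 of 33155 H2AK119ub regions met the rule, which was 22.7% of the whole list and 25.1% of the 30089 autosomal regions. They made up 34.4% of the autosomal H2AK119ub-only regions and 15.1% of the autosomal length under H2AK119ub, or 64.8 Mb. The calls, widths and gene positions that selected them are given here as a description, with no test.

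The mice were controls, aged 71 days after birth, and the cells came from their back skin. The animals carried the K14-RFP and K10-H2B-GFP reporters, driven by promoters of a basal and a suprabasal keratin gene. The sort for basal progenitors kept cells with Sca1 and high RFP but without GFP. There were 2 chromatin immunoprecipitation libraries with an antibody to H2AK119ub, 2 with an antibody to H3K27me3, and 1 input library, and no mutant or treated group. Each mark has 1 region list, with positions and no height, so no value below has a spread between libraries or mice, and counting intervals describe regions or genes only. Read depth is unknown, so an uncalled place is not shown to lack the mark. Since the lists hold no expression, the labelled cell type could not be checked against the RNA of its markers. Over all 20665 autosomal protein-coding genes, H2AK119ub lay within 1 kb of an end of 11664 and H3K27me3 of 4573. H2AK119ub was at an end of 24 of 26 basal epidermal and adhesion genes, 14 of 23 melanocyte, 21 of 26 dermal fibroblast, 19 of 24 immune, 17 of 20 endothelial and 18 of 20 Merkel cell genes. H3K27me3 was at an end of 3, 9, 17, 9, 12 and 20 genes of the same lists.

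H2AK119ub is written by Polycomb repressive complex 1 (PRC1), whose RING-type ubiquitin ligases pair with different PCGF subunits. H3K27me3 is written by Polycomb repressive complex 2 (PRC2). Canonical PRC1 complexes hold CBX subunits that bind H3K27me3, while variant PRC1 complexes lack CBX and hold RYBP or YAF2, so H2AK119ub can be placed where PRC2 has not been. The best known Polycomb sites are CpG-rich promoters of developmental genes, and the PRC1 partner KDM2B binds unmethylated CpG DNA. Low, broad H2AK119ub inside genes and between them has been described in other cells. In the epidermis, Polycomb complexes are known for holding back genes of other lineages, such as Merkel cell genes.

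Most regions had no transcript start listed in the promoter table used here, which had entries for 2526 of the 3170 host genes. The DNA printed first is that of 6 starts from the minority with a listed start. These 6 were not drawn to represent that minority. The RefSeq promoter table of GRCm38.p6 (mm10) gives a window of 300 bases at each listed start, 250 before it and 50 after it. Of 3708 starts of protein-coding genes that lay inside a gene body more than 1 kb from every gene end, 302 (8.14%) lay in one of these regions, and they belonged to 241 genes. The 250 bases before 6 of them follow, 5′ to 3′ on the strand of the gene, with every CpG dinucleotide in capitals. For Foxp1, a forkhead transcription factor gene, the printed stretch is chr6:99028299-99028548, and for Palld, which encodes the actin-associated protein palladin, chr8:61591140-61591389, both on the minus strand. For Tenm4, a teneurin adhesion receptor gene, it is chr7:96211421-96211670, and for Creb5, a gene of the CREB family of transcription factors, chr6:53573124-53573373, both on the plus strand. Kdm2b, with chr5:122900351-122900600 on the minus strand, and Phc2, a polyhomeotic subunit gene of PRC1 with chr4:128727321-128727570 on the plus strand, were added after their values had been seen. The start itself is the next base downstream of each stretch.
Foxp1: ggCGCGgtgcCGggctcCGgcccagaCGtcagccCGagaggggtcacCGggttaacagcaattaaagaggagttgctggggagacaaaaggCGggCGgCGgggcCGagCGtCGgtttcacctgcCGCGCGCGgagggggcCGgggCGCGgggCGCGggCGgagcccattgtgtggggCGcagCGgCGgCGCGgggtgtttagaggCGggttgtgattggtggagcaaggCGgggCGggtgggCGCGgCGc
Palld: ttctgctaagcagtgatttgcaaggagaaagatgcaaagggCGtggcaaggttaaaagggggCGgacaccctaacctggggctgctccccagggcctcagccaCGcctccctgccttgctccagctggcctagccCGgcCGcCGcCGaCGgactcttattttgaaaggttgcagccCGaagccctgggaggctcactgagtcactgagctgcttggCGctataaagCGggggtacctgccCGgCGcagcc
Tenm4: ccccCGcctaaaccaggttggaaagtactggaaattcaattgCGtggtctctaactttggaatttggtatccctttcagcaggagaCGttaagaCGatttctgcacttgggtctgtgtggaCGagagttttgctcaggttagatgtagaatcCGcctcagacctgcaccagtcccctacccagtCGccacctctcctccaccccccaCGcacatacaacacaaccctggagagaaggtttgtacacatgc
Creb5: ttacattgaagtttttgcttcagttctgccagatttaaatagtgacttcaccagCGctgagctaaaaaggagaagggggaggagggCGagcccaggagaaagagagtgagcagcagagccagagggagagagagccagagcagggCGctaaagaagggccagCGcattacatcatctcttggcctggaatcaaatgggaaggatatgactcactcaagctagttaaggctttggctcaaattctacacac
Kdm2b: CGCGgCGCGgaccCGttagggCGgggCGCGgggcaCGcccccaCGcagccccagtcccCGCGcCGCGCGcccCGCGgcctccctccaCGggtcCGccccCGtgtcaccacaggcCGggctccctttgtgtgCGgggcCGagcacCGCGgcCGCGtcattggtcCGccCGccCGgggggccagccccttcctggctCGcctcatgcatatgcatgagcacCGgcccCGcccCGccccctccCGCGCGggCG
Phc2: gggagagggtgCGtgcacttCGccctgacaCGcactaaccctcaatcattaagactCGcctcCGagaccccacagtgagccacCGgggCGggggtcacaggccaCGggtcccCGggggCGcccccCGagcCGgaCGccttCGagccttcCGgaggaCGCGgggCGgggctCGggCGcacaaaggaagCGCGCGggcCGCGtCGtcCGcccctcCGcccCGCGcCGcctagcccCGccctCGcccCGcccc

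The 6 sequences differ widely in CpG content. The windows of 300 bases held 49 CpG at Kdm2b, 45 at Phc2, 44 at Foxp1, 17 at Palld, 12 at Tenm4 and 4 at Creb5, and their ratios of observed to expected CpG were 0.996, 1.02, 1.11, 0.571, 0.595 and 0.215. Kdm2b, Phc2 and Foxp1 therefore had CpG-island-like windows inside regions of 10.6, 51.2 and 28.8 kb that shared nothing with H3K27me3. Foxp1 and Phc2 each also had another internal start in one of these regions, with 5 and 2 CpG in its window. The Foxp1 start lay 494.4 kb from the 5′ end of the annotated gene, the Palld start 311.6 kb, the Creb5 start 286.1 kb and the Tenm4 start 40.4 kb. The palindromic AP-1 motif, spelled TGANTCA and the same on both strands, was present in the Palld and Creb5 windows and absent from the other 4.

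Over all 302 internal starts in these regions the median window held 6 CpG, and 65 windows (21.5%, 95% Clopper-Pearson interval 17.0 to 26.6) held 15 or more, a limit set after the values had been seen. That interval treats the windows as independent, although they belong to 241 genes. Some windows overlap, such as those of Kdm2b with 49 and 47 CpG, so the interval may be too narrow. The 1545 internal starts in other H2AK119ub regions had a median of 10 CpG and 38.5% at or over the limit, and the 1861 internal starts in no H2AK119ub region a median of 7 and 33.3%. At gene ends with H2AK119ub-only regions the median start held 17 CpG and 55.3% were CpG-rich. Among protein-coding internal starts, CpG-rich ones were thus a smaller share in these regions than in either other group. The motif TGANTCA was in 29 of the 302 windows (9.6%), beside 7.84% of all 31396 autosomal promoter windows. Among protein-coding internal starts it was in 8.17% of those in no H2AK119ub region and 6.73% of those in other H2AK119ub regions. Starts of long noncoding RNAs inside gene bodies fell in these regions 312 times out of 2750 (11.3%), and 8.01% of those windows were CpG-rich. That share was 15.8% for long noncoding RNA starts in other H2AK119ub regions and 6.65% for those in none, so the order was not the one seen for protein-coding starts. Together, 480 regions (6.37%) held a listed start of either kind. Their median width was 11.3 kb, against 5.73 kb for regions without a listed start. The latter include regions in host genes that the promoter table lacks, so starts may have been missed there. A wider region has more room for a start, and the difference was not adjusted for that.

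Annotated small RNA genes were the other sequences that could be read. Of 1136 autosomal miRNA genes, 673 lay inside protein-coding gene bodies, and 48 (7.13% of those) lay wholly inside 46 of these regions. The share among long noncoding RNA genes inside bodies was 5.94% (149 of 2507), among small nucleolar RNA genes 5.21% (20 of 384), and among tRNA genes 18.5% (5 of 27). It was 4.38% among small nuclear RNA genes (14 of 320) and 4.57% among pseudogenes (85 of 1858). These regions covered 6.58% of autosomal gene body, so the miRNA share was near their share of sequence, and no share was tested. Mature sequences were listed for 41 of the 48 genes, 70 in all, and no 2 of them shared a seed. The sequences shown are 1 arm from each of the widest regions with a mature entry, and, chosen after their values had been seen, the miR-99b, let-7e and miR-125a cluster and miR-199a-5p. The seed, bases 2 to 8, is in capitals.
miR-8095: aAAGGAUUcugcugucuguccc
miR-721: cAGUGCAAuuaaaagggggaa
miR-7018-5p: gUGAGCAGacagggaguggugggg
miR-7117-5p: uCUGGGGGcucagcugaggaua
miR-7677-5p: aGUGGUGAgcagaaagcagccgcgg
miR-6896-5p: uUUGUAGGcgacgagaacccgu
miR-99b-5p: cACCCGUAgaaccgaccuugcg
let-7e-5p: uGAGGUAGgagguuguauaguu
miR-125a-5p: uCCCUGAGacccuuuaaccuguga
miR-199a-5p: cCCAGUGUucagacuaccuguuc

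The widest of these regions, 62.5 kb in Dgkg, a diacylglycerol kinase gene, held miR-8095. The gene of miR-721 lay in a 47.3 kb region of Cux1, a homeobox gene of the hair follicle, and that of miR-6896 in a 24.9 kb region of Dst, which encodes dystonin of the hemidesmosome. Mir7212 in Retreg1 (58.2 kb) and Mir6539 in Dock5 (40.7 kb) were matched by gene only. The cluster of Mir99b, Mirlet7e and Mir125a lay in 1 region of 3.49 kb, chr17:17827909-17831398, inside Spaca6, a gene of sperm and egg fusion that had neither mark at its ends. Mir199a-1 lay in a 6.83 kb region of Dnm2, the gene of the membrane-fission enzyme dynamin.

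Regions inside gene bodies were as narrow as those between genes and narrower than those at gene ends. Their median width was 5.96 kb (95% bounds of the median over regions 5.82 to 6.155), with quartiles of 3.18 and 10.8 kb and a range from 0.502 to 99.6 kb. The median was 5.90 kb for the 8146 H2AK119ub-only regions between genes, 9.62 kb for the 6166 at gene ends, and 9.79 kb for the 1477 regions inside gene bodies that shared sequence with H3K27me3. Regions of 20 kb or more were 7.97% (601 regions) of those inside bodies, 7.99% of those between genes, 22.2% of those at ends and 19.7% of those shared with H3K27me3. Width was part of the rule, so the comparison has no test. A wider region is also more likely to touch a gene end or H3K27me3, which places it in another class. The rule thus shapes the order of these medians, and by how much was not tested.

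**Figure D1:**
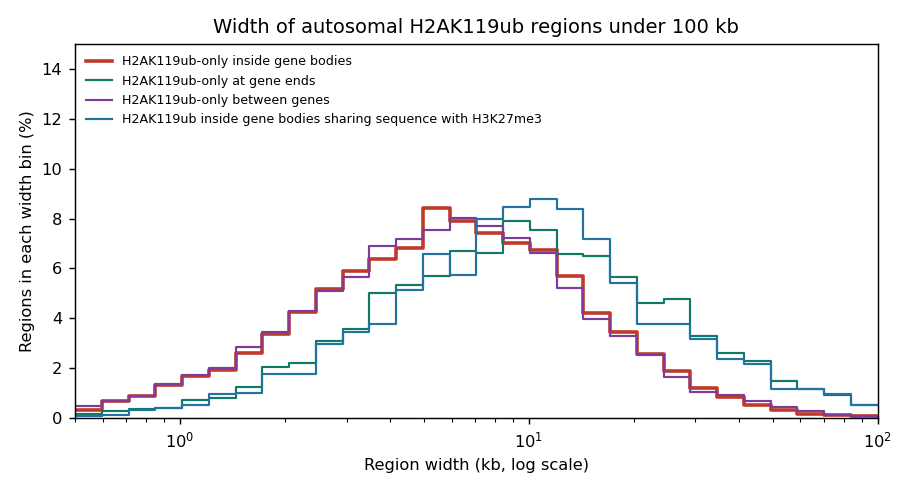
Width of autosomal H2AK119ub regions under 100 kb by class, as the percentage of a class in each width bin, with width in kb on a log axis. The lines for regions inside gene bodies (median 5.96 kb) and between genes (median 5.90 kb) lie over each other, and those for gene ends and for regions shared with H3K27me3 are shifted to the right (medians 9.62 and 9.79 kb).

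The 10 widest regions lay in Xylt1 (99.6 kb), Kazn (95 kb), Antxr1 (89.4 kb), Rgs3 (86.8 kb), Ldlrad3 (84.3 kb), Gfra1 (83.4 kb), Prkag2 (83.0 kb), Frmd4a (82.6 kb), Col23a1 (80.8 kb) and Gas7 (77.4 kb). Xylt1 encodes the xylosyltransferase that starts glycosaminoglycan chains, and its region at chr7:117498263-117597895 was the closest to the width limit. Kazn encodes kazrin, a protein of the desmosome and the cornified envelope, and Gfra1 a receptor for GDNF. A region of 130.3 kb in Tns3, the gene of the adhesion protein tensin 3, was the only one left out by width alone.

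The other limits of the rule cut through a continuous range. The regions nearest to a gene end that were still kept lay 1001 bp away in Mtarc2 and 1002 bp away in Ing1 and Sh3bgrl2. Regions at 999 bp in Pafah2 and 998 bp in Tmem237 and Hfe were left out. The kept regions nearest to H3K27me3 were 16 bp away in Mylk, 136 bp in Prune2 and 167 bp in Gnal, and regions that shared 33 bp in Slc13a3, 34 bp in Tnr and 58 bp in Fam169b were left out. The counts depended on the gene-end limit. With no window around gene ends, 8553 regions in 3823 hosts met the rule, and with a window of 5 kb, 6500 in 2539. Most of the kept regions lay further inside the gene. The median distance to the nearest gene end was 24.7 kb, with 13.8% under 5 kb and 29.9% over 50 kb.

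H3K27me3 was far from most of these regions. The median distance to the nearest H3K27me3 region was 76.8 kb (quartiles 30.5 and 170.0 kb), and 358 regions (4.75%) had one within 5 kb. The distance was 75.9 kb for H2AK119ub-only regions between genes, of which 8.15% had H3K27me3 within 5 kb, and 57.3 kb for those at gene ends, of which 6.93% did. Other H2AK119ub regions were nearer. The median gap to the nearest one was 3.22 kb (95% bounds 3.05 to 3.41), 624 gaps (8.28%) were under 1 kb, 4464 (59.2%) under 5 kb, and 86.2% under 20 kb. The nearest neighbour was another of these regions in 4676 cases (62.0%), an H2AK119ub-only region at a gene end in 21.0%, a region at a gene end shared with H3K27me3 in 8.33%, and a region inside a body shared with H3K27me3 in 5.23%. The gap depended on how finely regions were split: with H2AK119ub regions up to 3 kb apart joined first, the median gap was 9.73 kb and H3K27me3 lay within 5 kb of 2.98% of the regions. How the calling step itself split or joined stretches was not tested.

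Regions of the same class followed each other in runs. When regions up to 5 kb apart were counted as 1 run, the 7540 regions fell into 5671 runs, of which 1270 held 2 or more regions and 60 held 5 or more. The longest run by count held 9 regions over 141 kb of Prkca, the gene of protein kinase C alpha. Runs of 8 were found over 126 kb of Sh3pxd2a, a podosome scaffold gene, 120 kb of Camk1d, a calcium-regulated kinase gene, and 98.2 kb of Tiam1, a Rac exchange factor gene. Runs of 7 spanned 142 kb of Stard13, a GTPase-activating protein gene, and 134 kb of Tead1, the gene of a DNA-binding partner of YAP. Sh3pxd2a, Camk1d and Tiam1 were named after their values had been seen, as were the Ugt1a genes, Flg2 and Nf2 below.

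The regions lay in 3170 host genes, 15.3% of the 20665 autosomal protein-coding genes, and they were mostly long genes. Hosts were 2.21% of genes under 20 kb (245 of 11089), 19% at 20 to 50 kb, 33.8% at 50 to 100 kb, 48.8% at 100 to 200 kb, 57.6% at 200 to 500 kb (420 of 729) and 46.8% at 500 kb or more (101 of 216). Of the 4725 genes of 50 kb or more, 2003 (42.4%) were hosts, and this share is the background for the gene lists below. The lists were not matched to it for length, and among these genes the share differed by length class. The mean number of regions per host was 1.06 in the shortest class and 6.55 in the longest, and the median share of the body covered was 24.9% and 4.55%. Over all hosts, 1706 (53.8%) held 1 region, 1084 held 2 to 4, and 380 (12%) held 5 or more, and these 380 genes accounted for 3046 pairs of a region and a host. The median host had 16.0% of its body covered, and 261 hosts (8.23%) had more than 50% covered. Nearly every region had 1 host (7499). A region of 3.28 kb at chr1:88151672-88154955 had 6, the overlapping Ugt1a genes of glucuronidation, which share their last exons.

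**Figure D2:**
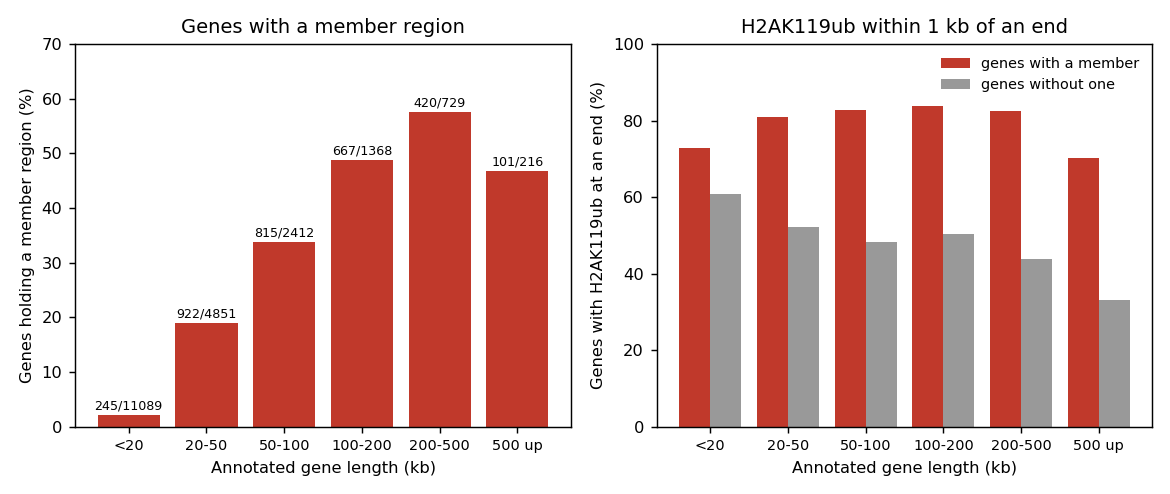
Left, the percentage of autosomal protein-coding genes in each length class that held a region, with counts above the bars. Right, the percentage with H2AK119ub within 1 kb of an end, for genes with a region (red) and for genes long enough to hold one but without any (grey). The left bars climb from 2.21% to 57.6% and end at 46.8%, and the red bar is above the grey one in all 6 length classes.

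Host genes more often carried H2AK119ub at their ends than other genes did. Of the 3170 hosts, 2575 (81.2%, 95% Clopper-Pearson interval 79.8 to 82.6) had an H2AK119ub region within 1 kb of an end. Among the 14851 genes that were long enough to hold a region and held none, the share was 56.2%. Hosts were longer, with a median of 71.5 kb against 17.2 kb, so the shares were also taken by length. They were 72.7% against 60.9% under 20 kb, 81.0% against 52.2% at 20 to 50 kb, 82.7% against 48.3% at 50 to 100 kb, 83.7% against 50.4% at 100 to 200 kb, 82.6% against 43.7% at 200 to 500 kb, and 70.3% against 33.0% in the longest genes. Neighbouring regions come from 1 list and 1 calling step, and the part of that step in this difference was not tested.

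H3K27me3 at the ends was in no length class more frequent in hosts. It was present at 8.57% of hosts against 21.4% of other genes under 20 kb, 14.6% against 20.7% at 20 to 50 kb, 25.9% against 26.7% at 50 to 100 kb, 27.4% against 36.2% at 100 to 200 kb, 41.9% against 55.7% at 200 to 500 kb, and 60.4% against 60.9% in the longest genes. Over all hosts, 1849 (58.3%) had H2AK119ub alone at their ends, 726 (22.9%) had both marks, 61 (1.92%) had H3K27me3 alone and 534 (16.8%) had neither. Over all autosomal protein-coding genes these shares were 37.6%, 18.8%, 3.31% and 40.2%. Between the annotated ends, 921 hosts (29.1%) met an H3K27me3 region, beside 24.4% of the other genes long enough to hold a region. This count includes H3K27me3 that reached into a gene at its end, and it was not split by length. Within hosts, the marked end was more often the 5′ one. The strand was available for 2526 hosts, of which 1760 (69.7%) had H2AK119ub at the 5′ end and 1089 (43.1%) at the 3′ end, and 970 (38.4%) had it at the 5′ end only, against 299 (11.8%) at the 3′ end only. Among other genes the 5′ end alone was marked in 15.7% and the 3′ end alone in 6.38%. These shares were not split by length, and the other genes were shorter.

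Along the gene the regions had no preferred side. In 2333 hosts of 20 kb or more with a strand, the centres of 5746 regions had a median relative position of 0.493, where 0 is the 5′ end, and 50.7% lay nearer the 5′ end. When each body was divided into 10 equal bins, these regions covered on average 7.26% of the first bin, 28% of the fifth and 7.35% of the last. The rule keeps regions away from the ends and so shapes that profile. All H2AK119ub regions together covered 49.7% of the first bin, 39.4% of the next one, and between 34.5% and 37.1% of each bin after that. Coverage in these genes was level from the third bin to the last, with the higher values next to the 5′ end. The genes were chosen because they hold a region away from their ends, which raises the inner bins of this profile too. The level profile therefore describes the chosen genes only.

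**Figure D3:**
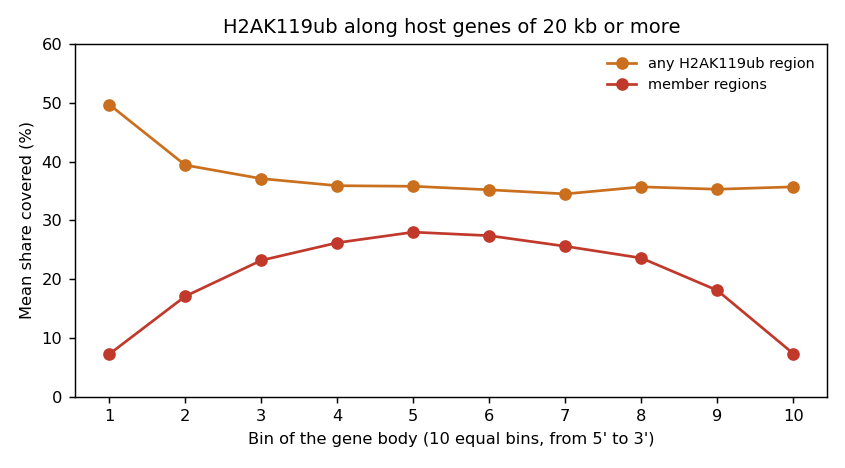
Mean percentage of each of 10 equal bins of the gene body, from 5′ to 3′, covered by H2AK119ub-only regions inside bodies (red) and by any H2AK119ub region (orange), over 2333 hosts of 20 kb or more with a known strand. The orange line starts at 49.7% and levels at 34.5 to 37.1% from the third bin, and the red line drops to 7.26% and 7.35% in the end bins, where the rule leaves out regions near gene ends. All genes shown were chosen for a region inside the body, which raises the inner bins of both lines.

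The genes with the most regions were long genes in which H2AK119ub alternated with gaps along most of the body or in stretches of it. Auts2, which encodes a component of variant PRC1, held 30 regions in its 1106 kb. They were 2.088 to 55.5 kb wide with a median of 11 kb, and covered 427.1 kb, or 38.6% of the body. It had both marks at its ends, and 5 H3K27me3 regions met the gene, counting that at an end. Lrmda, named for melanocyte differentiation, and Tenm4 held 25 each, over 29.7% and 33.5% of their bodies. Rora, a nuclear receptor gene, held 20 of 4.666 to 69.1 kb and was covered over 54.0%. Pdzd2, a PDZ-domain protein gene, also held 20, over 37.7%.

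Protein kinase C was represented by Prkce and Prkca with 19 regions each, which covered 58.2% and 53.6% of the body. Creb5 held 16 over 61.2%. Foxp1, Rbms3, Tiam1, Tenm2, Alk, Dab1, Maml3 and Lpp also held 16 and came after it by covered length. Palld held 17 over 39.1%, and Pde4d, a gene of cyclic AMP breakdown, 17 over 9.91% of its 1302 kb. Pde4d thus had as many regions as Palld in a much longer body. Tenm4 and Prkca had no H3K27me3 region anywhere in the body.

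**Figure D4:**
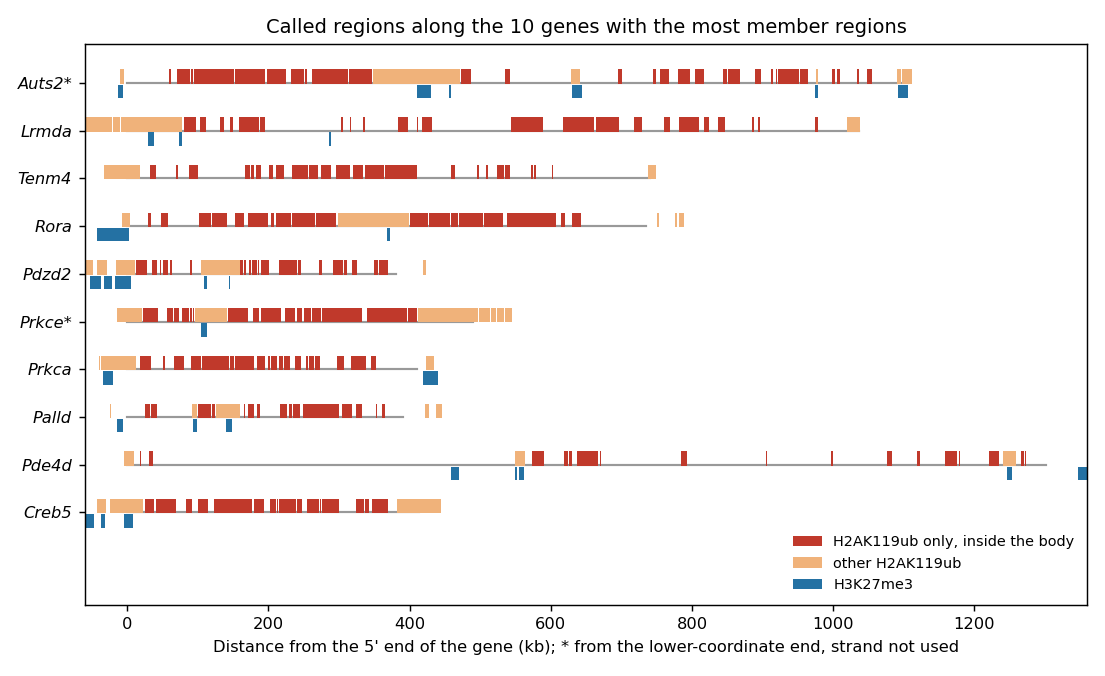
Called regions along the 10 genes with the most H2AK119ub-only body regions, by distance in kb from the 5′ end, or from the lower-coordinate end for Auts2 and Prkce, whose strand was not available, with the gene as a grey line. Of the genes tied at 16 regions, Creb5 is shown because its regions cover the greatest length. Red blocks are the H2AK119ub-only regions inside the body, orange blocks other H2AK119ub regions and blue blocks H3K27me3 regions. Red blocks run through most of Rora, Prkce, Prkca and Creb5 and are sparse in Pde4d, where they cover 9.91% of the body.

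Genes covered nearly from end to end were shorter. Pptc7, the gene of a mitochondrial phosphatase, had 88.5% of its 39.9 kb covered by regions of 3.01 and 32.3 kb. Coq8a, of coenzyme Q synthesis, and Iqgap3, a scaffold protein gene, followed at 81.3% each. Ccdc62 had 79.4%, Sipa1l3 78.8%, Gas7 78.3%, Uck2, a pyrimidine salvage kinase gene, 78.0%, Tbc1d2b 77.7%, Stk10 77.1% and Oscp1 77.0%. Of these 10, 8 had H2AK119ub alone at their ends, and Gas7 and Stk10 had both marks. Share covered is a part of the calls that chose the regions, and the order is a description of 1 list.

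A smaller set had body regions and unmarked ends. Among the 534 hosts with neither mark at their ends, Palld held 17 regions, Rbms3, an RNA-binding protein gene, 16, Wwox 13, Arhgap24 13 and Stard13 12. Rbms3 had 17.1% of 1057 kb covered and no H3K27me3 in the body. Wwox, an oxidoreductase gene at a fragile site, differed from it: its body held 24 H2AK119ub regions in all and 14 H3K27me3 regions. Arhgap24 and Stard13 both encode GTPase-activating proteins, and were covered over 16.3% and 41.2%.

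Genes of basal keratinocytes and their anchorage were hosts in 8 of 26 cases, and in 6 of the 8 that were 50 kb or longer. Lama3, a chain of the laminin-332 of the basement membrane, held 11 regions of 2.769 to 22.2 kb that covered 41.9% of 249.6 kb. Dst held 9 over 23.1%. Cdh3, the gene of P-cadherin, held 1 region of 18.8 kb over 40.8% of its body. Lamb3, the gene of another chain, held 1 region of 5.14 kb (10.4%). The integrin gene Itga6 held 1 of 14.2 kb, and Cd44 1 of 3.28 kb. Trp63, the master transcription factor gene of stratified epithelia, held 4 narrow regions of 4.91, 3.45, 3.06 and 2.74 kb over 6.8% of 208.3 kb, with neither mark at its annotated ends and the nearest H3K27me3 670.0 to 792 kb from them. Lamb3, Itga6, Cd44 and Trp63 were named after their values had been seen.

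Suprabasal and desmosome genes had a median length of 23.5 kb, beside 17.5 kb for all autosomal protein-coding genes. Of them, 6 of 35 (17.1%) were hosts, near the 15.3% of all genes, and 2 of 4 at 50 kb or more. Grhl1, a grainyhead factor gene, held 3 regions of 4.92 to 10.05 kb (47.5% of the body), Ppl, the gene of periplakin, 7.67 and 5.36 kb (28.2%), and Tgm3, a transglutaminase gene, 1 of 9.66 kb (15.4%). Flg2, of the filaggrin family, was the only one of the 6 without H2AK119ub at an end. Among hair follicle regulators 13 of 35 were hosts, and 11 of the 18 of 50 kb or more. Cux1 held 8 regions over 38.7%, Tcf7l2, a Wnt effector gene, 8 over 47.3%, and Nfix 2 of 7.12 and 42.2 kb over 51.1%. The Nfix region of 42.2 kb held 4 listed internal starts, with 2 to 13 CpG each. Junction and polarity genes were hosts in 14 of 34 cases and 12 of 22 at 50 kb or more, with Tjp1 (ZO-1; 7 regions, 43.9%), Magi1 (8, 14.7%) and Cgnl1 (9, 45.2%) covered over the greatest length.

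Signalling pathways had regions in receptors, transducers and nuclear factors alike. In the Wnt list, 15 of 40 genes were hosts, and 14 of 22 at 50 kb or more. The receptor gene Ror1 held 12 regions over 50.5%, the planar polarity gene Prickle2 11 over 44.7%, and the co-receptor gene Lrp5 regions of 15.8, 9.26, 24.6 and 1.04 kb over 49.8%. In the TGF-beta and BMP list, 13 of 33 were hosts (11 of 20 at 50 kb or more), led by the co-receptor gene Tgfbr3 (9 regions, 42.5%), the latent TGF-beta binding protein gene Ltbp2 (3, 45.9%) and the ubiquitin ligase gene Smurf1 (4, 41.7%). In the Notch list, 10 of 38 were hosts (6 of 10 at 50 kb or more). The coactivator gene Maml3 held 16 regions over 28.4%, Maml2 7 over 6.81%, and the receptor gene Notch2 regions of 3.62, 13.0, 10.9 and 8.84 kb over 26.5%. The ligand gene Jag1, named after its values were seen, had 53.5% of its body in 1 region of 18.8 kb.

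Receptor tyrosine kinase and MAP kinase genes were hosts in 16 of 46 cases, and in 13 of 28 (46.4%) at 50 kb or more, near the background of 42.4%. Ntrk2, a neurotrophin receptor gene, held 11 regions over 30.5%, Igf1r 10 over 31.9%, and Fgfr2, whose IIIb form is the epithelial receptor for FGF7 and FGF10, 5 over 75.5%. The 5 in Fgfr2 were 11.9, 13.3, 22.4, 4.04 and 27.2 kb wide, and the nearest H3K27me3 was at least 521 kb from each. Hippo pathway genes were hosts in 15 of 36 cases and 14 of 22 at 50 kb or more. Of the 15, 14 had H2AK119ub alone at their ends, and the exception, Nf2, had both marks. Tead1 held 8 regions over 57.2%, Ptpn14, a phosphatase gene that restrains YAP, 4 over 60.1%, and Amotl1 5 over 42.2%. Over all hosts the share with H2AK119ub alone was 58.3%.

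Transcription factor genes with long bodies were hosts in 39 of 69 cases, with 37 of 61 at 50 kb or more. Creb5 and Foxp1 held 16 regions each, over 61.2% and 41.0%, and Bach2, a lymphoid and stress factor gene, 10 over 51.8%. Nuclear receptor genes were hosts in 12 of 42 cases, and in 11 of 24 (45.8%) at 50 kb or more, near the background of 42.4%, among them Rora and the retinoic acid receptor gene Rarb (8 regions, 15.7%).

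Genes of the Polycomb system itself were among the hosts, in 11 of 46 cases and in 10 of 20 at 50 kb or more. Besides Auts2, Kdm2b held 5 regions of 12.1, 10.6, 19.8, 27.1 and 12.3 kb that covered 69.1% of 118.6 kb, and Phc2 51.2 and 5.82 kb that covered 58.1%. The others, named after their values were seen, were Fbrsl1 (39.0%), Jarid2 (16.1%), Usp7 (27%), Pcgf5 (12.9%), Mga (5.89%), Yaf2 (3.8%), Ezh1 (4.53%) and Scmh1 (1.26%). Of the 9 hosts with a strand, 5 had an internal start of their own in a region. In all 5 at least 1 such window was CpG-rich, and the richest held 49 CpG in Kdm2b, 45 in Phc2, 35 in Pcgf5, 27 in Fbrsl1 and 24 in Mga. Another own start of Phc2 in its 51.2 kb region had a window with 2 CpG. Over all hosts with a strand, 241 of 2526 (9.54%) had an own start in a region and 61 (2.41%) a CpG-rich one. This count was made after the sequences printed above had been read, and has no test.

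Lists of other cell types and gene families gave a wide range around the background of 42.4% for genes of 50 kb or more. Synaptic and neural adhesion genes, with a median length of 1080 kb, were the longest. At 50 kb or more they were hosts in 17 of 49 cases (34.7%), beside 46.8% of all genes of 500 kb or more. The median share of the body covered was 0.733% among the synaptic and neural hosts. Tenm4 stood apart from most of them, and Tenm2 held 16 regions over 12.1% and Sdk2 6 over 39.2%. Of 23 melanocyte genes, 8 were hosts (4 of 9 at 50 kb or more), led by Trpm1 with regions of 7.14, 8.37, 24.8, 14.0 and 9.24 kb over 54.8% and Mitf with 18.3, 23.8 and 3.18 kb over 21.1%. Sox5 held 5 over 3.03%. Of 23 pigmentation factors made by keratinocytes, 2 were hosts (2 of 8 at 50 kb or more). Kitl, the gene of stem cell factor, held 1 region of 10.5 kb, 31.3 kb from its 5′ end, and Nrg1 3 of 1.68, 1.25 and 1.13 kb. At all lengths, where the background is 15.3%, fibroblast genes were hosts in 7 of 26 cases, immune genes in 6 of 24, endothelial genes in 4 of 20 and Merkel cell genes in 4 of 20. At 50 kb or more the counts were 2 of 8, 1 of 3, 4 of 7 and 4 of 7. The leading genes in these lists were Pdgfrb (18.7%), Vav1 (41.0%), Flt1 (30.2%) and Tenm2.

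Among families defined by symbol, myosin genes were hosts in 16 of 25 cases at 50 kb or more, with Myo18a (61.6 kb covered), Myo16 (58.9 kb) and the nonmuscle heavy chain gene Myh9 (49.9 kb) in front. Receptor-type tyrosine phosphatase genes were hosts in 11 of 19 (Ptprn2, Ptprg and Ptprj) and phosphodiesterase genes in 8 of 18 (Pde4d, Pde4b and Pde8a). Collagen genes were below the background with 9 of 27, although Col23a1 held 11 regions over 60.5% and Col4a1 2 over 71.7%. ADAM protease genes (6 of 24), calcium and potassium channel genes (20 of 56) and Zfp zinc finger genes (15 of 43) were below it too. Solute carrier genes were near it with 39 of 97. Hosts were 1 of 76 ribosomal protein genes (Rps20) and 1 of 1104 olfactory receptor genes (Olfr1358), families with median lengths of 3.18 and 0.95 kb. Only a gene over 2502 bp could hold even the narrowest region, so the rule kept most olfactory receptor genes from being hosts. Of all genes under 20 kb, 2.21% were hosts. These lists were chosen with earlier results known, several hold few long genes, and no share was tested.

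**Figure D5:**
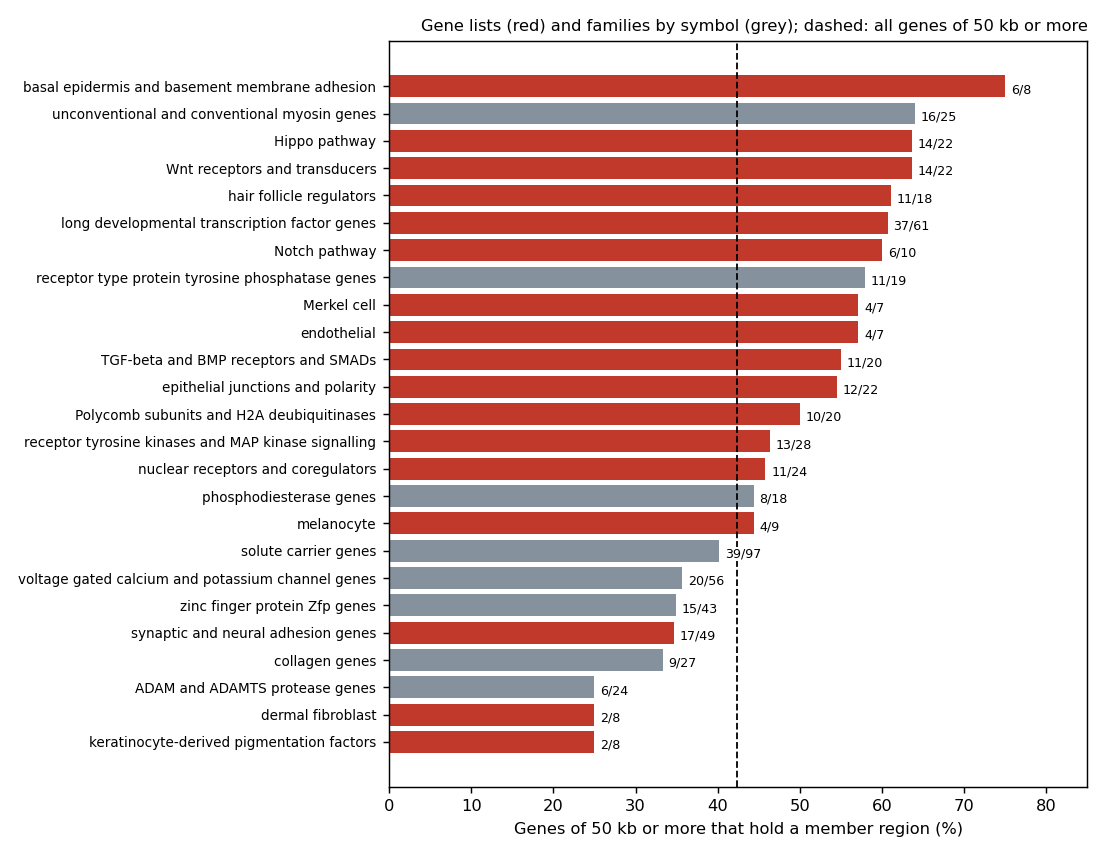
Percentage of genes of 50 kb or more that held an H2AK119ub-only body region, for lists of symbols (red) and families (grey) with at least 5 such genes, with counts beside the bars. The dashed line is the share of all autosomal protein-coding genes of that length, 42.4%, and the bars run from 25% to 75%. The lists were not matched for length among genes of 50 kb or more.

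The regions were found on all 19 autosomes. They covered 6.58% of the 984.1 Mb of autosomal gene body, at 7.66 regions per Mb. Density was lowest on chromosomes 14 (5.84 per Mb) and 1 (5.99 per Mb) and highest on chromosomes 19 (9.62 per Mb), 18 (9.56 per Mb) and 11 (9.48 per Mb). Coverage ran from 4.72% on chromosome 3 to 9.03% on chromosome 11, and the median width from 5.12 to 6.91 kb on the same chromosomes. The gene-rich chromosomes 11 and 19 were both at the upper end, as was chromosome 18, and a link with gene content was not tested.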

How the data were processed

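Each library started from 5 ng of DNA and was read in single reads (75 nt), per the labels' protocols. The authors deposited, for each mark, 1 list of region positions (chromosome, start, end), per the file headers. The submitters' processing notes name Bowtie2 2.3.3.1, SAMtools 1.9 and mm10, with no role. How peaks were called, with which threshold, with or without the input and on pooled or separate libraries is not given in the sources used here. The number and width of regions depend on those steps.

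Starts were read as counted from 0. Genes, transcript starts, strands and sequences came from RefSeq tables of GRCm38.p6. Exons, introns, UTRs and the base composition of whole regions were not analysed here. Overlap meant at least 1 shared bp, and an end meant 1 kb around either annotated gene end. Intervals are 95% Clopper-Pearson intervals for shares and order statistics for medians. Of 671 symbols in 19 lists, 666 matched autosomal genes, and 11 families were taken by symbol. The members and lists were chosen with earlier results of these data known. Named genes were the 10 hosts with the most regions, the 10 with the largest share covered, the hosts of the 10 widest regions, the 5 leading hosts without marks at the ends, up to 3 per list by covered length, the regions beside each limit, and the miRNA genes of the widest regions. A region with several hosts was counted under each. Some genes that the rule takes, and 1 family, are not reported here. Alternatives changed the window, widths, joining and annotation. Interval counts were tested on simulated data. Python 3.11.15, numpy 2.4.6, pandas 2.3.3, SciPy 1.17.1 and Matplotlib 3.10.9 were used.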

Additional observations from a re-analysis of the deposited data

How the results depend on the processing

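Under 9 alternatives, 39 recomputed values stayed within their counting interval, or within 1.5 times for counts, and 14 moved further. With no window around gene ends the median width was 5.72 kb, the share of hosts with H2AK119ub at an end 84.2% and the median gap 3.03 kb, and with a window of 5 kb they were 6.18 kb, 83.3% and 3.44 kb. With regions under 2 kb left out, the width was 6.86 kb and the gap 2.97 kb. With the ends of all annotated genes in place of protein-coding ones, the width was 5.69 kb. Joining H2AK119ub regions up to 3 kb apart changed most: 4659 regions met the rule, and 3879 of them had the same start and end as before, with a median width of 6.37 kb, a gap of 9.73 kb, H3K27me3 within 5 kb in 2.98%, and H2AK119ub at an end in 75.3% of 2353 hosts. Joining attaches some body regions to a region at a gene end or to one shared with H3K27me3, which removes them. An upper limit of 50 kb, no upper limit, a distance of 5 kb from H3K27me3 and starts counted from 1 moved none of the values they gave; the share near H3K27me3 has no value when that distance is required. No paired analysis was possible because each mark has 1 list and no result comes from a test. Depth is unknown, so what it limits cannot be given.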
